A study of Homo sapiens with 18 samples.

Results

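The 45 genes described here encode proteins of the mitotic spindle, the centrosome, the chromosomal passenger complex, anaphase onset and cytokinesis, and they were taken by name, without kinesins or kinetochore genes, from the 58884 genes of each count table. All 45 were found once, and all 45 had more than 10 counts in every fit, so none was lost to the filter on low counts. T47D is an estrogen receptor-positive luminal breast cancer cell line. RNA was sequenced from T47D AAV cells, labelled WT, and from T47D JL cells, labelled PARP1 KO, after 48 hours with DMSO, with niraparib at 10 μmol/L or with olaparib at 10 μmol/L, and each of the 6 groups had 3 libraries. Niraparib and olaparib are inhibitors of the DNA damage sensor PARP1 and its relative PARP2. The labels name a single knockout line and a single control line, the study's methods describe 3 dishes for each condition of its omics experiments, and the labels do not tie a library to a dish, so the errors and p-values below measure the spread between these libraries.

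During mitosis, centrosomes and microtubule-binding proteins build the spindle, the chromosomal passenger complex corrects attachments at centromeres, separase opens the cohesin rings at anaphase, and a ring controlled by the GTPase RhoA then cleaves the cell. Most genes of this machinery are low in G1 and are switched on late in the cycle. Their promoters often hold a cell cycle genes homology region (CHR), the element bound by MuvB-containing complexes, downstream of CCAAT boxes bound by the trimeric factor NF-Y. The MuvB core activates together with B-MYB and FOXM1 and represses, in the DREAM complex, together with p130 or p107 and E2F4 or E2F5. Centriole duplication starts earlier, around the entry into S phase, and some of its genes are E2F-regulated.

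Promoter windows from RefSeq on GRCh38.p14 (250 bases before to 50 bases after each gene start) were held for 37 of the 45 members. TPX2, FAM83D, TROAP, RACGAP1, BIRC5, CDCA2, UBE2C and PBK had none in the table used. The 6 letters TTTGAA of the CHR, searched on both strands, stood in 24 of these 37 windows (64.9%), against 15.4% of all 27305 promoter windows of the same length. Within 50 bases of the start, they stood in 21 of 37 (56.8%), against 4.82% of all windows. The letters CCAAT, on either strand, stood in 25 of 37 (67.6%), against 35.7% of all. The E2F letters TTCCCGC stood in 5 of 37 (13.5%), against 6.56%. CHR and CCAAT letters together stood in 21 of 37 (56.8%), against 6.08%. Such a match is a description of letters and does not show that a factor binds. Only these exact letters were searched, so a window without them may still hold a variant of the element.

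The 150 bases upstream of the start are shown for 7 members, with the CHR, CCAAT and E2F letters in capitals, on the strand of the gene and ending at the base before the start. No set rule chose these 7, so they are examples and do not stand for the other members. CKS2 (chr9:89311045-89311194, plus strand), HMMR (chr5:163460482-163460631, plus), CDCA8 (chr1:37692366-37692515, plus) and INCENP (chr11:62123861-62124010, plus) hold both CCAAT and CHR letters and were all lower with niraparib. CKS1B (chr1:154974531-154974680, plus) also holds both and was not called. Of the 3 sets of exact letters searched, CDCA5 (chr11:65084041-65084190, minus) holds the E2F letters alone, and it had higher values with niraparib. KNSTRN (chr15:40382571-40382720, plus) holds none of the 3 and had the third lowest log2 fold change of the 45.
CKS2: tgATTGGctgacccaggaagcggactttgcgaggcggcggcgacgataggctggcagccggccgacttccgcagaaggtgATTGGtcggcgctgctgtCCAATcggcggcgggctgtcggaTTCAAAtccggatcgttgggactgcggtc
HMMR: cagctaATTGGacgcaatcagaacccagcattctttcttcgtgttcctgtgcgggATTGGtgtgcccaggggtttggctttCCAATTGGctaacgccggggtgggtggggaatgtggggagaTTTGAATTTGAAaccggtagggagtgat
CDCA8: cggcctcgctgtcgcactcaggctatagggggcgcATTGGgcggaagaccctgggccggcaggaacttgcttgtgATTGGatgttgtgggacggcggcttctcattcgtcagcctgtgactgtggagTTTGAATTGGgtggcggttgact
INCENP: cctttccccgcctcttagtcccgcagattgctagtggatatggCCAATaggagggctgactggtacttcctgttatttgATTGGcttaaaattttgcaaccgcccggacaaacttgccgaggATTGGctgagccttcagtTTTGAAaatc
CKS1B: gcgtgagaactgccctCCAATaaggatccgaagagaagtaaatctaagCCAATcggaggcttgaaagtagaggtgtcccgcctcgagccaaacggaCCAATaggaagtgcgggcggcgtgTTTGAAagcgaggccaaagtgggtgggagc
CDCA5: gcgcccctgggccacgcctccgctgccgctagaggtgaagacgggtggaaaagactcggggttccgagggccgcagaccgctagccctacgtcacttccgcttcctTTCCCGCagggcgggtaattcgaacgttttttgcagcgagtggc
KNSTRN: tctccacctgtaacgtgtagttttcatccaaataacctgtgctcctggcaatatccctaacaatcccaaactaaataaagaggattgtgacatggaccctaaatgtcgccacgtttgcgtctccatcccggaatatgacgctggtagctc
The CHR letters begin 29 bases before the start in CKS2 (read on the opposite strand), 28 and 22 bases before it in HMMR, 23 in CDCA8, 10 in INCENP and 30 in CKS1B. In CDCA8 the last CHR base is also the first base of a CCAAT box on the opposite strand, in HMMR a forward and a reverse CCAAT box overlap, and the CDCA5 E2F letters begin 44 bases before the start.

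**Figure D1:**
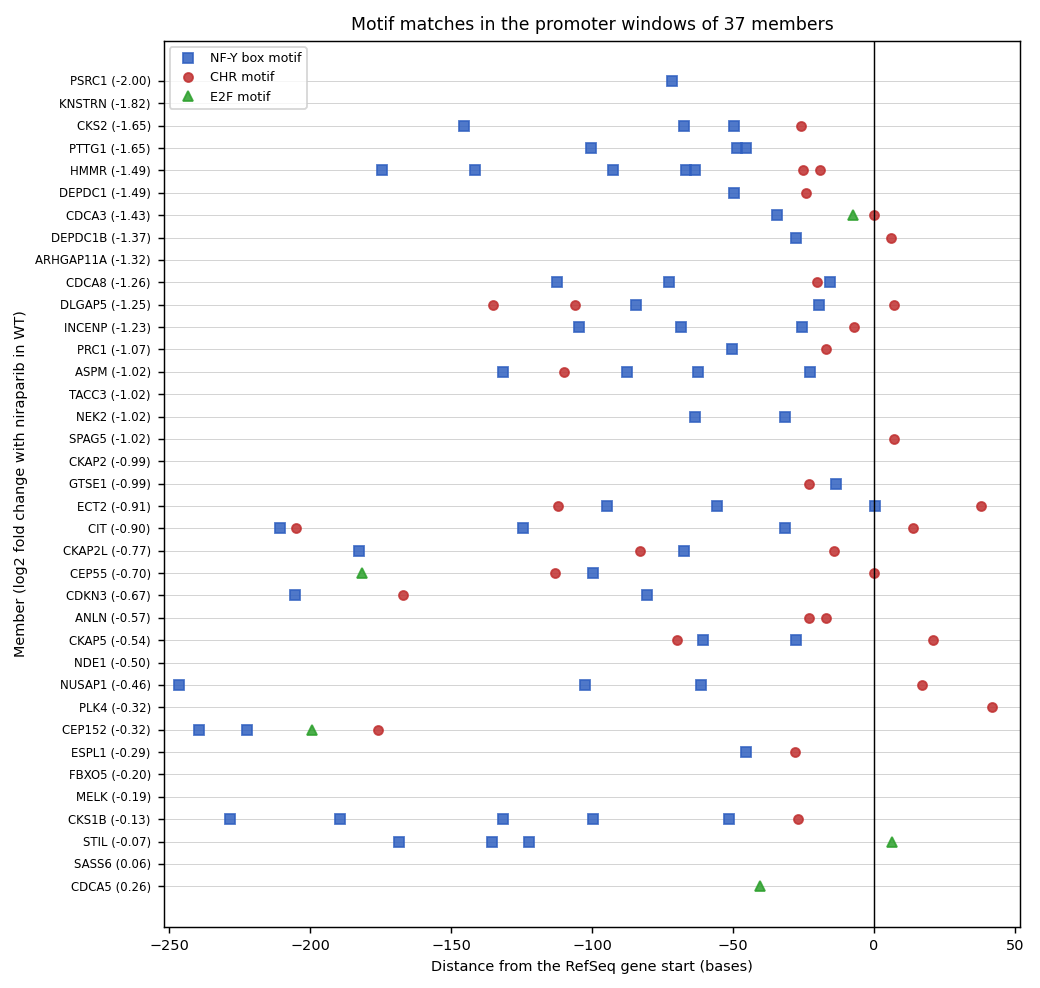
Distance of each motif match from the RefSeq gene start, in bases, for the 37 members with a promoter window (squares, the CCAAT or NF-Y box; circles, the CHR; triangles, E2F letters). Members are ordered by the log2 fold change with niraparib in WT, given in parentheses, from -2.003 for PSRC1 at the top to 0.26 for CDCA5 at the bottom, and 21 of the 37 rows have a circle within 50 bases of the start.

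Of the 24 members with a window that were called lower with niraparib in WT, 17 held the CHR letters and 19 the CCAAT letters. Of the 13 that were not called, 7 held the CHR letters and 6 the CCAAT letters. Members with and without the letters stood in both groups. PSRC1, PTTG1 and NEK2, all called lower, had CCAAT letters in the window without the exact letters TTTGAA. KNSTRN, ARHGAP11A, TACC3 and CKAP2, also called lower, had neither. CKS1B, CEP152, NUSAP1, ESPL1 and CKAP5 had both and were not called.

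Library totals ran from 28890837 to 52251288 counts, and values are given as CPM, counts scaled to library size, after TMM normalisation over the 18 libraries. PARP1 itself was at 347, 373 and 368 CPM in the WT DMSO libraries and at 24.999, 24.22 and 24.988 CPM in the PARP1 KO DMSO libraries, and none of the 9 PARP1 KO libraries exceeded 27.6 CPM. The target transcript thus matched the labels. The luminal markers KRT8, KRT18, KRT19, GATA3, EPCAM and ESR1 were present in all 18 libraries, the lowest being ESR1 at 112 CPM. Of the other-lineage markers, PTPRC, CD3E, PECAM1, KRT5, KRT14 and COL1A2 stayed at or below 0.852 CPM, and COL1A1 was at 88.3 to 152.6 CPM. Of 8 luminal markers, PGR (1396 ± 105 CPM with DMSO and 756 ± 29.3 with niraparib in WT) and GATA3 (1105 ± 51.4 and 662 ± 20.2, SD, n = 3) were called lower with niraparib in WT (background 5.72%). Without the fold limit, 7 of the 8 were lower with niraparib (background 18.1%; median log2 fold change -0.416) and 7 of the 8 with olaparib (background 7.77%; median -0.291), and their part in the results below was not tested. Calls required an adjusted p below 0.05 together with a change of more than 1.5-fold, by edgeR's quasi-likelihood test with Benjamini-Hochberg adjustment over all genes of the fit. SE is the standard error of a log2 fold change, and SD is the standard deviation of 3 libraries.

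To ask how the division machinery responded to niraparib in cells with PARP1, niraparib was compared with DMSO in WT. Of the 45 members, 30 were called and all 30 were lower, against 5.72% of the 22446 genes tested that were called lower. The median log2 fold change of the 45 was -0.989, against -0.0247 for all genes tested. Without the fold limit, 40 members were lower at an adjusted p below 0.05 (background 18.1%), and CDCA5 was the single one higher. In 41 members the 3 niraparib libraries were all lower than the 3 DMSO libraries, against 22.5% of all genes. The summed level of the 45 genes was 7603, 7979 and 7830 CPM with DMSO and 4509, 4298 and 4359 CPM with niraparib. Because these are bulk libraries, fewer cells in G2 and mitosis and less RNA of these genes in each cell cannot be told apart.

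The calls were spread over 5 of the 6 roles, with few among the centriole genes. Called lower were 13 of 17 spindle genes, 7 of 8 cytokinesis genes, 5 of 6 passenger and cell division cycle associated genes, 4 of 7 genes of anaphase, ubiquitin and CDK binding, and 1 of 5 centriole genes. Neither of the kinases of unsettled role was called. Median log2 fold changes were -1.02, -0.905, -1.18, -0.669 and -0.322 for these 5 roles in that order. No test compared the roles.

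**Figure D2:**
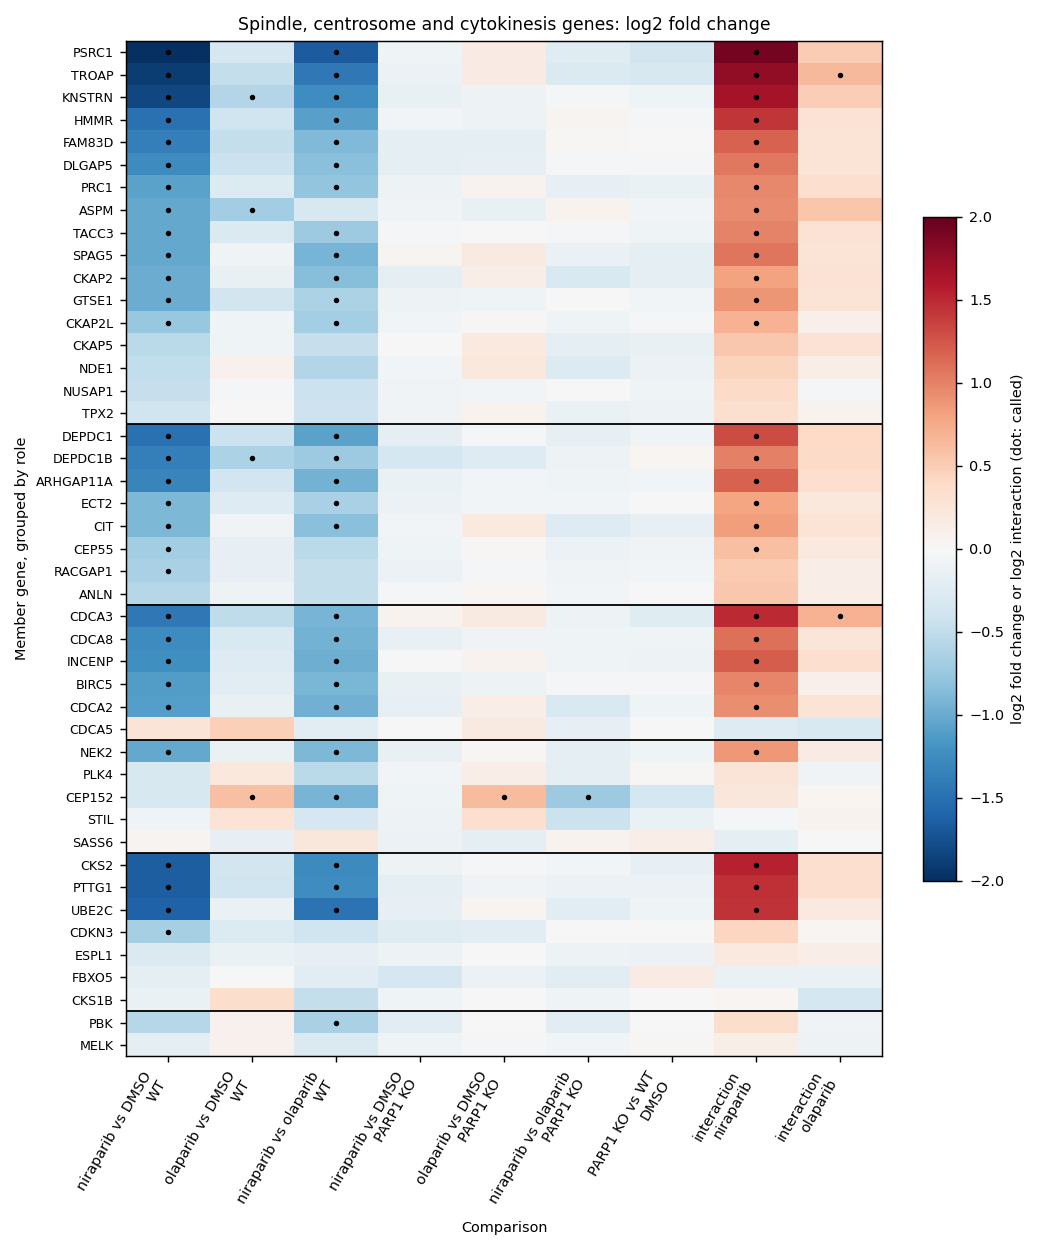
Log2 fold change of each of the 45 members (rows, grouped by role and ordered within it) in 9 comparisons (columns), on a color scale from -2 to 2, with a dot where the gene was called. The first column holds 30 dots, all on negative values, the 3 columns within PARP1 KO hold 2 dots, both for CEP152, and the niraparib interaction column holds 28 dots on positive values.

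Among the spindle genes, PSRC1, a microtubule-binding protein of the spindle (chr1:109279556-109283186, minus strand), changed most of all 45. Its values in WT were 40.6, 36.2 and 35.6 CPM with DMSO, 9.67, 9.17 and 9.20 with niraparib and 29.9, 29.3 and 29.4 with olaparib. In PARP1 KO they were 29.2, 28.3 and 29.2 with DMSO, 26.1, 25.6 and 29.3 with niraparib and 34.7, 29.3 and 32.9 with olaparib. The 3 WT niraparib libraries stood far below the other 15, which lay between 25.6 and 40.6 CPM. PSRC1 fell by 2.003 on the log2 scale with niraparib in WT (SE 0.0707, adjusted p = 3.27e-15, edgeR), a 4.01-fold lower level. KNSTRN, the kinetochore- and spindle-bound partner of SPAG5 (chr15:40382721-40394246, plus), had 98.1, 110.3 and 106 CPM with DMSO, 30.6, 26.8 and 31.98 with niraparib and 66.6, 72.6 and 70.2 with olaparib in WT, a graded series without overlap. Its niraparib change was -1.82 (SE 0.0654, adjusted p = 8.64e-15, edgeR), and its 9 PARP1 KO libraries ran from 83.4 to 101 CPM. FAM83D, which anchors casein kinase 1 on the spindle (chr20:38926312-38953106, plus), went from 124, 134 and 131 CPM with DMSO to 52.96, 47.3 and 50.96 with niraparib in WT, 2.57-fold lower (log2 fold change -1.36, SE 0.0555, adjusted p = 3.04e-14, edgeR).

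SPAG5 and TACC3 showed the same WT pattern with small spreads. SPAG5, or astrin, which acts on kinetochore fibers (chr17:28577565-28599025, minus), had 305, 302 and 306 CPM with DMSO and 158, 150.4 and 142 with niraparib in WT, and its PARP1 KO niraparib libraries had 299, 269 and 269.5. SPAG5 had 270.1, 269.7 and 267 CPM with DMSO in PARP1 KO, so the 2 groups were separate in WT and overlapped in PARP1 KO. TACC3, which binds CKAP5 and clathrin between spindle microtubules (chr4:1712891-1745176, plus), had 247, 254 and 246 CPM with DMSO, 127, 120.2 and 120.3 with niraparib and 199, 208 and 201 with olaparib in WT, and 239.6, 231 and 225 with niraparib in PARP1 KO. With niraparib in WT, TACC3 was 2.03-fold lower (adjusted p = 1.74e-13) and SPAG5 2.02-fold lower (adjusted p = 3.90e-13, edgeR). ASPM, which focuses spindle poles (chr1:197084127-197146694, minus), had 355, 336 and 331 CPM with DMSO, 164, 178 and 161 with niraparib and 209.8, 215 and 204 with olaparib. For ASPM both drug groups lay below DMSO, and the niraparib group lay below the olaparib group.

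The remaining spindle genes ranged widely. TROAP, or tastin, was at -1.90 and HMMR, the hyaluronan-mediated motility receptor that acts at spindle poles, at -1.49. DLGAP5 (-1.25), PRC1 (-1.07), CKAP2 (-0.99), GTSE1 (-0.99) and CKAP2L (-0.77) were also called lower. At the weak end were CKAP5 (-0.54), NDE1 (-0.50), NUSAP1 (-0.46) and TPX2 (-0.40), which did not reach the 1.5-fold limit although their adjusted p-values were 3.98e-09, 3.54e-08, 2.04e-05 and 8.32e-07 (edgeR). TPX2, the activator of Aurora A, thus remained at 387 ± 8.45 CPM (SD, n = 3) with niraparib from 511 ± 29.9 with DMSO. PRC1 and NUSAP1 share 57.6% and 62.2% of their exon bases with another annotated gene on the same strand, and reads on such bases were not counted, so their low levels of 10.9 ± 1.45 and 24.3 ± 0.702 CPM in WT DMSO (SD, n = 3) cover part of each gene.

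**Figure D3:**
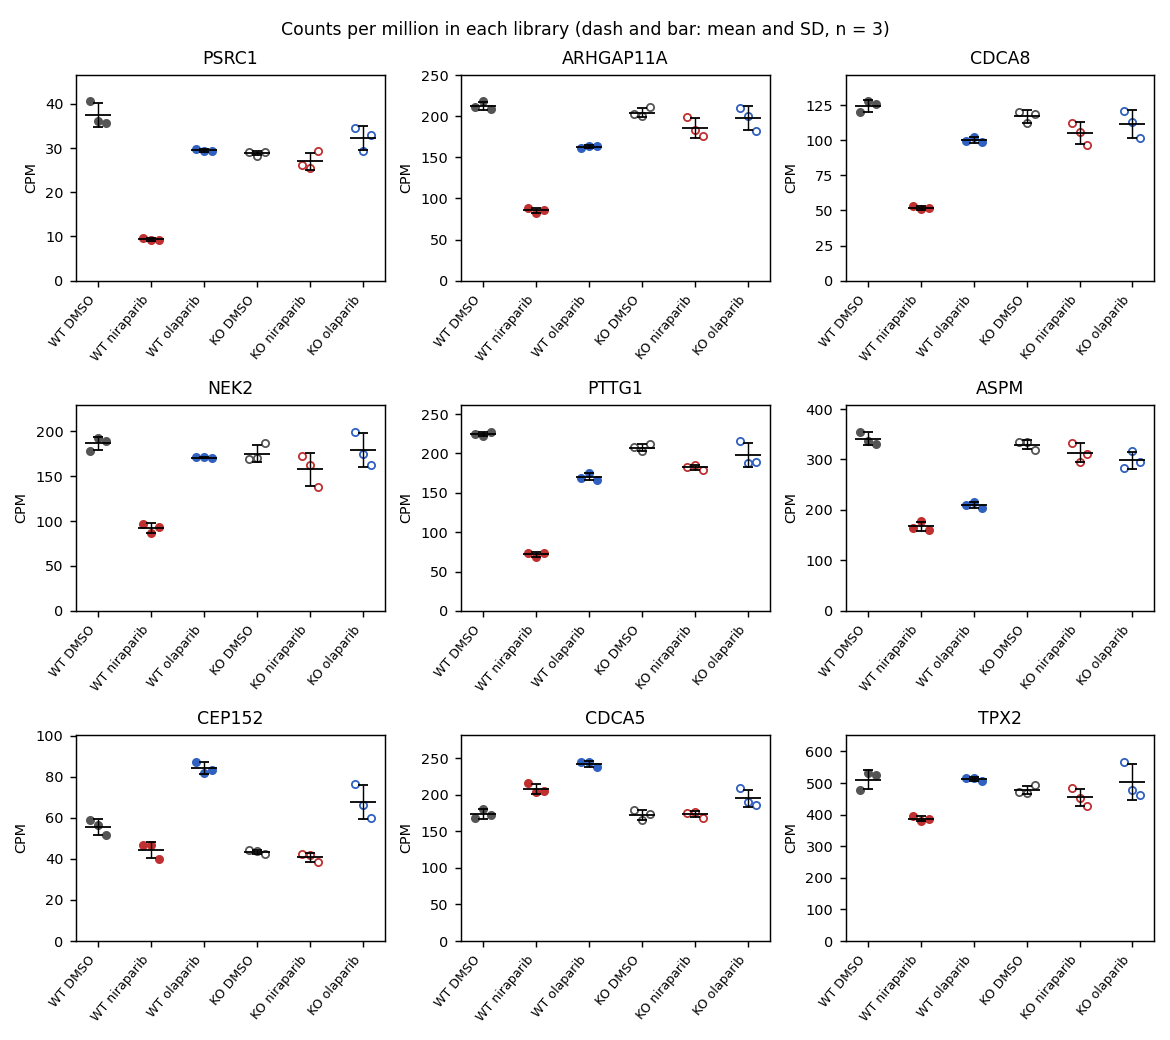
Level of 9 members in each library, in CPM on linear axes from 0, by group (filled points, WT; open points, PARP1 KO; dash and bar, mean and SD of 3 libraries). PSRC1, ARHGAP11A, CDCA8, NEK2 and PTTG1 are lowest in the 3 WT niraparib libraries, ASPM is low with both drugs in WT, CEP152 is high with olaparib in both genotypes, and CDCA5 is higher with both drugs in WT.

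Among the cytokinesis genes, the strongest calls were ARHGAP11A, DEPDC1 and DEPDC1B. ARHGAP11A, a RhoGAP of the dividing cell (chr15:32615144-32639941, plus), had 211, 218 and 209 CPM with DMSO, 88.6, 82.3 and 85.4 with niraparib and 162, 164 and 164 with olaparib in WT. Its PARP1 KO libraries had 203, 199.99 and 211 CPM with DMSO, 199.6, 183 and 176 with niraparib and 211, 200.4 and 182 with olaparib. The WT niraparib libraries were the lowest 3 of the 18, and the change was -1.32 (SE 0.0468, adjusted p = 3.40e-15, edgeR). ARHGAP11A has a near-identical copy, ARHGAP11B, so the assignment of its reads is uncertain. DEPDC1 (chr1:68474152-68497221, minus) had 84.2, 83.99 and 87.6 CPM with DMSO and 32.01, 28.4 and 30.97 with niraparib in WT, and from 63.97 to 86.3 CPM over the 9 PARP1 KO libraries. DEPDC1B (chr5:60596912-60700190, minus), a DEP and RhoGAP domain protein, had 42.8, 45.3 and 45.6 CPM with DMSO, 16.4, 16.99 and 18.5 with niraparib and 26.9, 32.3 and 26.8 with olaparib in WT. In PARP1 KO, DEPDC1B had 42.6, 45.8 and 48.7 CPM with DMSO, 38.1, 35.1 and 34.4 with niraparib and 38.9, 38.7 and 37.8 with olaparib, so that both drug groups lay below DMSO there too.

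The remaining cytokinesis genes had smaller changes, and no test set them against ARHGAP11A, DEPDC1 and DEPDC1B. ECT2, the RhoA exchange factor that positions the furrow, was at -0.91 with niraparib in WT, CIT, the citron kinase of the midbody, at -0.90, CEP55, the midbody protein that recruits abscission factors, at -0.70, and RACGAP1, the centralspindlin subunit that binds ECT2, at -0.65, and all 4 were called. ANLN, the anillin scaffold of the contractile ring, was at -0.57 (adjusted p = 2.23e-09, edgeR), inside the fold limit. ECT2 and ANLN were among the most abundant members by counts, with 565 ± 7.70 and 512 ± 23.4 CPM in WT DMSO (SD, n = 3).

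All 3 members that form the chromosomal passenger complex with Aurora B fell with niraparib in WT. CDCA8, or borealin (chr1:37692481-37709719, plus), had 119.9, 128 and 126 CPM with DMSO, 53.4, 50.9 and 51.7 with niraparib and 99.1, 103 and 99.1 with olaparib in WT, and 120.2, 112 and 119, then 112, 106 and 96.8, then 121, 113 and 101 in the same order in PARP1 KO. The 3 WT groups were separate, and the 3 PARP1 KO groups overlapped. INCENP, the scaffold of the complex (chr11:62123998-62153169, plus), had 189, 198 and 182 CPM with DMSO and 85.1, 75.8 and 81.5 with niraparib in WT, and its PARP1 KO niraparib libraries had 177, 169.7 and 177. BIRC5, or survivin (chr17:78214186-78225636, plus), had 235, 261 and 255 CPM with DMSO and 119, 109.7 and 116 with niraparib in WT. Their changes were close to each other at -1.26 (SE 0.0488), -1.23 (SE 0.0537) and -1.12 (SE 0.0508), with edgeR adjusted p-values of 1.34e-14, 9.71e-14 and 1.84e-13. CDCA3, the trigger of mitotic entry that targets WEE1, and CDCA2, the chromatin-bound phosphatase 1 subunit repo-man, were at -1.43 and -1.10, both called.

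CDCA5, or sororin, which protects cohesin after replication, went the other way. It had 168, 180.3 and 173 CPM with DMSO, 216, 204 and 205 with niraparib and 244, 245 and 238 with olaparib in WT, and no drug library overlapped the DMSO libraries. On the log2 scale it stood at 0.26 with niraparib (adjusted p = 1.09e-04, edgeR), and olaparib brought it to 0.48 (adjusted p = 2.44e-07, edgeR), both within 1.5-fold. CDCA5 was singled out after its values were seen.

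Of the centriole genes, NEK2 alone was called lower. NEK2, the kinase that dissolves the linker between centrosomes (chr1:211658657-211675630, minus), had 178, 193 and 189 CPM with DMSO, 96.7, 86.5 and 93.1 with niraparib and 172, 171 and 169.8 with olaparib in WT, and 172, 162 and 138 with niraparib in PARP1 KO. All 3 WT niraparib libraries were below every other library, at -1.02 (SE 0.0507, adjusted p = 8.19e-13, edgeR). PLK4, the master kinase of centriole duplication (chr4:127880893-127899224, plus), had 28.8, 27.8 and 30.6 CPM with DMSO, 24.7, 23.1 and 21.9 with niraparib and 34.3, 33.7 and 33.02 with olaparib in WT. The 2 drugs thus lay on opposite sides of DMSO, at -0.32 for niraparib and 0.21 for olaparib, with adjusted p-values of 3.31e-04 and 0.0214 (edgeR). The olaparib value of PLK4 did not pass without any 1 of the 3 WT Olaparib libraries or without WT DMSO replicate 2 (adjusted p from 0.0504 to 0.0975, edgeR). STIL, which PLK4 phosphorylates, was at -0.07 with niraparib (adjusted p = 0.337) and 0.27 with olaparib (adjusted p = 8.71e-04, edgeR). SASS6, which builds the cartwheel of the new centriole (chr1:100083563-100132955, minus), had 16.97, 19.4 and 17.8 CPM with DMSO and 18.2, 18.6 and 19.8 with niraparib, which overlapped, and at 0.06 (SE 0.0859) it had the smallest absolute change of the 45.

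CEP152, the scaffold that recruits PLK4 to the centriole (chr15:48712928-48811146, minus), was the 1 member called higher with olaparib in both genotypes. In WT it had 58.7, 56.4 and 51.4 CPM with DMSO, 46.8, 46.5 and 39.9 with niraparib and 87.2, 81.7 and 83.3 with olaparib. In PARP1 KO it had 44.1, 43.8 and 42.3 CPM with DMSO, 42.2, 41.8 and 38.2 with niraparib and 76.4, 66.05 and 60.1 with olaparib. In both genotypes every olaparib library was above every DMSO and niraparib library. The olaparib change was 0.60 in WT (SE 0.0645, adjusted p = 1.11e-06) and 0.64 in PARP1 KO (SE 0.0720, adjusted p = 2.59e-05, edgeR), both called. The genotype by olaparib term for CEP152 was 0.04 (SE 0.101, adjusted p = 0.899, edgeR), so a difference between the genotypes was not detected. Both calls sat close to the 1.5-fold limit. The WT call was lost without WT Olaparib replicate 1 (0.569) or WT DMSO replicate 3 (0.548), and the PARP1 KO call without PARP1 KO Olaparib replicate 1 (0.538).

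At anaphase onset and in CDK binding, 3 members fell by similar amounts. PTTG1, or securin, the inhibitor of separase (chr5:160421855-160428739, plus), had 225, 223 and 228 CPM with DMSO, 73.5, 68.2 and 73.98 with niraparib and 169, 175 and 167 with olaparib in WT. Its PARP1 KO libraries had 208, 203 and 212 CPM with DMSO, 183, 186 and 179 with niraparib and 216, 188 and 189.8 with olaparib. PTTG1 had the smallest adjusted p of all 45 members, 2.76e-16 (edgeR), for a change of -1.65 (SE 0.0478). CKS2, a CDK-binding subunit (chr9:89311195-89316703, plus), had 147, 171 and 162 CPM with DMSO, 52.003, 47.4 and 53.97 with niraparib and 123, 123 and 125 with olaparib in WT, a niraparib change of -1.65 (SE 0.0590). UBE2C, the ubiquitin-conjugating enzyme of the anaphase-promoting complex (chr20:45812576-45816957, plus), had 199.8, 246 and 231 CPM with DMSO, 75.7, 70.8 and 74.6 with niraparib and 209, 203 and 204 with olaparib in WT, and its niraparib change was -1.62 (SE 0.0625). For UBE2C the olaparib libraries overlapped those with DMSO.

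The other members of this role changed less. CKS1B, the paralog of CKS2, had 55.6, 59.5 and 59.5 CPM with DMSO, 56.5, 51.01 and 51.99 with niraparib and 75.6, 73.3 and 72.6 with olaparib in WT, so its niraparib libraries overlapped DMSO (-0.13, adjusted p = 0.0609, edgeR) and its olaparib libraries did not (0.35, adjusted p = 9.39e-05, edgeR). CKS1B was named after its values were seen. ESPL1, the separase that PTTG1 holds in check, was at -0.29 (adjusted p = 1.78e-05, edgeR). FBXO5, the inhibitor EMI1 of the anaphase-promoting complex, was at -0.20 (adjusted p = 0.0600, edgeR). CDKN3, a CDK-associated phosphatase, was called lower at -0.67. PTTG1 and CKS1B have near-identical copies elsewhere in the genome, so their reads may be split.

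The kinases MELK and PBK, whose place in mitosis is unsettled, were both inside the fold limit with niraparib in WT. PBK (chr8:27809624-27838082, minus) had 86.6, 90.1 and 90.9 CPM with DMSO, 62.8, 53.6 and 63.7 with niraparib and 94.8, 96.7 and 90.6 with olaparib in WT, a niraparib change of -0.57 (adjusted p = 7.06e-08, edgeR), or 1.49-fold, just inside the limit. MELK (chr9:36572862-36677683, plus) had 64.6, 69.2 and 70.6 CPM with DMSO and 58.5, 58.8 and 61.5 with niraparib in WT (-0.19, adjusted p = 0.00360, edgeR). With scaling by total count alone, MELK was at -0.1 and did not pass (adjusted p = 0.115, edgeR). Every niraparib library of both genes was below every DMSO library.

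Olaparib, set against the same WT DMSO libraries at the same concentration and time, changed few members. The calls were 3 lower (background 1.98%), ASPM at -0.70, DEPDC1B at -0.63 and KNSTRN at -0.59, and 1 higher (background 2.06%), CEP152. Their adjusted p-values were 2.67e-09, 1.78e-06 and 1.02e-06 for the 3 lower genes (edgeR). KNSTRN was at the fold limit and lost its call without WT Olaparib replicate 1 (-0.556), WT DMSO replicate 2 (-0.544) or WT DMSO replicate 3 (-0.578). Without the fold limit, 24 members were lower (background 7.77%) and 5 were higher (background 11.2%), the latter CEP152, CDCA5, CKS1B, STIL and PLK4. The median log2 fold change was -0.164, against -0.0166 for all genes tested. The summed level of the members was 6909, 6956 and 6894 CPM with olaparib in WT, below all 3 DMSO libraries and above all 3 niraparib libraries.

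The direct comparison of the drugs, niraparib against olaparib in WT, called 28 members, all lower with niraparib (background 3.33%). The median log2 difference was -0.734, against 0.0200 for all genes tested. In 43 of the 45, every niraparib library lay below every olaparib library, against 21.5% of all genes. UBE2C differed by -1.48 (SE 0.0624, adjusted p = 1.52e-12, edgeR) and PSRC1 by -1.66 (SE 0.0712). ASPM, at -0.33 (SE 0.0491, adjusted p = 1.75e-05, edgeR), differed by less than 1.5-fold, and SASS6, at 0.23, had a positive difference. PBK passed the limit here (-0.65, adjusted p = 2.10e-08, edgeR), with 94.05 ± 3.10 CPM with olaparib and 89.2 ± 2.27 with DMSO (SD, n = 3), and lost its call without WT Niraparib replicate 2 (-0.575).

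In PARP1 KO cells, niraparib against DMSO called none of the 45 members by edgeR or by DESeq2, and 0.0136% of the 22037 genes tested were called. At an unadjusted p below 0.05 stood 14 members, against 9.13% of all genes tested, and 1, DEPDC1B, was lower at an adjusted p below 0.05 (background 0.0499%), at -0.35 (SE 0.0648, adjusted p = 0.0311, edgeR). DEPDC1B did not pass without any 1 of the 3 PARP1 KO Niraparib libraries or without PARP1 KO DMSO replicate 2 or 3 (adjusted p from 0.0781 to 0.22, edgeR), nor with the replicate number as a block (adjusted p = 0.0649, edgeR). The median log2 fold change was -0.0972, against 0.00505 for all genes tested. In 14 members every niraparib library was below every DMSO library, against 8.67% of all genes. The summed level was 7342, 7282 and 7542 CPM with DMSO and 7328, 6894 and 6610 CPM with niraparib, with 1 niraparib library inside the DMSO range. FBXO5 had the next largest change, -0.33 (SE 0.0686, adjusted p = 0.0581, edgeR), and it passed by DESeq2 (adjusted p = 0.0104) and without a filter on low counts (adjusted p = 0.00682, edgeR). The members lower at an adjusted p below 0.05 then numbered 2 by DESeq2 and 5 without the filter.

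**Figure D4:**
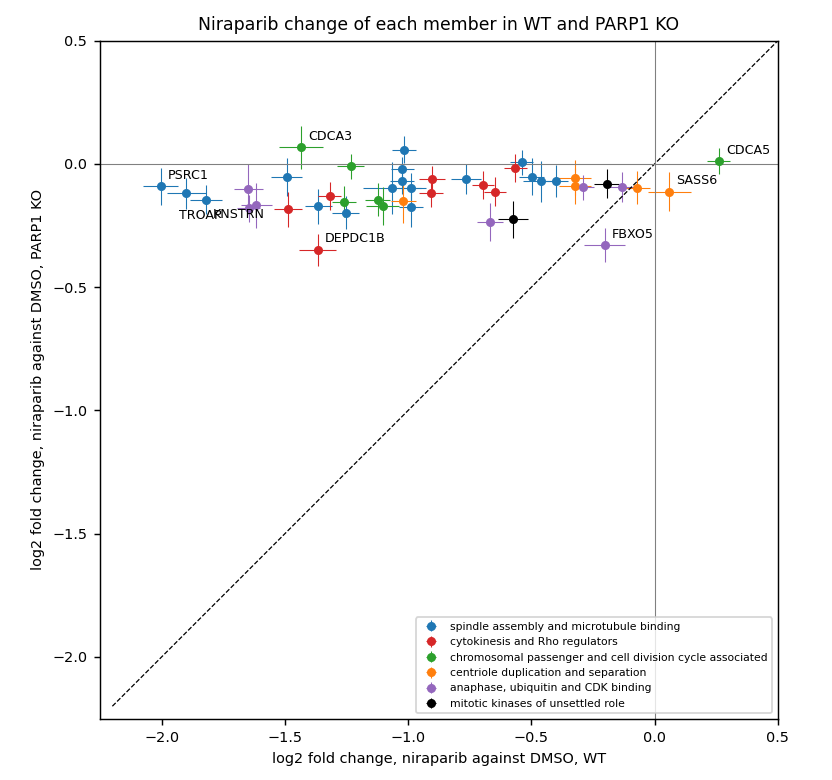
Log2 fold change with niraparib against DMSO in WT (x axis) and in PARP1 KO (y axis) for each of the 45 members, colored by role, with bars of 1 SE and a dashed line of equal change. The members spread from -2.003 to 0.26 along the WT axis and lie between -0.35 and 0.07 on the PARP1 KO axis.

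Olaparib in PARP1 KO called CEP152 higher and no other member (background 0.467%). Without the fold limit, 6 members were higher (background 4.42%), namely CEP152, STIL (0.33), CKAP5 (0.20), CIT (0.19), SPAG5 (0.19) and CDCA5 (0.18), and DEPDC1B was the 1 that was lower (-0.25, background 3.87%). These counts rested on single libraries: 2 were higher and 3 lower without PARP1 KO Olaparib replicate 1, 2 higher and 0 lower without PARP1 KO Olaparib replicate 2 or PARP1 KO DMSO replicate 2, and 3 higher without PARP1 KO DMSO replicate 1 or 3. The median log2 fold change was 0.00606 and -0.0516 without PARP1 KO Olaparib replicate 1, and the summed level of 8109, 7456 and 7074 CPM overlapped that with DMSO. Between the drugs, CEP152 was again the 1 member called, lower with niraparib than with olaparib at -0.73 (SE 0.0723, adjusted p = 7.73e-06, edgeR; background 0.449%), and 10 members were lower with niraparib without the fold limit (background 5.73%). That count was 3 without PARP1 KO Niraparib replicate 2 and 5 without PARP1 KO Niraparib replicate 3 or PARP1 KO Olaparib replicate 1 or 2. STIL was the next of these at -0.43 (adjusted p = 3.85e-04, edgeR). The olaparib libraries of PARP1 KO were the least alike, with a median coefficient of variation of 7.59% over the 45 members, against 2.11% for WT olaparib.

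Whether the niraparib change differed between genotypes was tested by the interaction term, the log2 change in PARP1 KO minus that in WT, over all 18 libraries. Of the 45 members, 28 had a called positive term (background 3.68%), meaning a less negative change in PARP1 KO, and 38 were positive without the fold limit (background 10.4%). The median term was 0.864, against 0.0331 for all genes tested. PSRC1 was at 1.91 (SE 0.102, adjusted p = 1.62e-16), PTTG1 at 1.46 (SE 0.0712, adjusted p = 1.34e-17) and CKS2 at 1.54 (SE 0.125, adjusted p = 6.94e-08, edgeR). CDCA5 was the one member with a negative term at an adjusted p below 0.05 (-0.25, adjusted p = 0.00561, edgeR). RACGAP1 and CDKN3, called lower in WT, had terms of 0.53 and 0.43, inside the fold limit.

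The olaparib interaction was smaller. It was called for TROAP at 0.65 (SE 0.111, adjusted p = 0.00277) and CDCA3 at 0.69 (SE 0.121, adjusted p = 8.33e-04, edgeR), both positive, which is 2 of 45 (background 0.276%). TROAP lost its call without WT DMSO replicate 1 (0.545). The term was positive without the fold limit for 14 members (background 0.912%), and negative for CDCA5 (-0.30) and CKS1B (-0.35). TROAP had 124 ± 15.04 CPM with DMSO and 89.01 ± 4.17 with olaparib in WT, and 99.2 ± 7.33 and 111 ± 2.80 in PARP1 KO (SD, n = 3 each). ASPM, with 0.56 (SE 0.0729, adjusted p = 1.03e-05, edgeR), had the smallest adjusted p of the 45 and did not reach 1.5-fold.

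Without drug, few differences between the 2 lines were found in these genes. PARP1 KO against WT with DMSO called none of the 45 by edgeR or by DESeq2 (background 0.146%), with 13 members at an unadjusted p below 0.05, against 13.6% of all genes tested. PSRC1 (-0.37, adjusted p = 0.00266), CEP152 (-0.35, adjusted p = 0.00953) and TROAP (-0.32, adjusted p = 0.0453, edgeR) were lower in PARP1 KO at an adjusted p below 0.05 (background 0.584%). The median log2 difference was -0.0818, against -0.00164 for all genes tested. It ran from -0.103 without WT DMSO replicate 1 to -0.0444 without WT DMSO replicate 2. None of the 3 passed without WT DMSO replicate 1 (adjusted p = 0.0548, 0.0968 and 0.23 for PSRC1, CEP152 and TROAP, edgeR), and PSRC1 alone passed without PARP1 KO DMSO replicate 2 or 3. With 1 line of each genotype, loss of PARP1 and any other difference between the lines cannot be told apart.

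Per kilobase of exon, the level of the members in WT DMSO ran from 3.25 CPM per kb for CDCA3 to 259.6 for CKS2, leaving out PRC1 and NUSAP1, whose lengths include the uncounted shared bases. CKS2, UBE2C (175), TPX2 (142), PTTG1 (114) and ECT2 (103) led this order, and SASS6 (4.54) and CDCA3 closed it. The duplication factors PLK4 (6.49), STIL (5.41) and CEP152 (6.80) stood close together, while NEK2 was at 60.3.

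Gene lists around the 45 members showed where the WT niraparib change was found. Of 28 other mitotic genes (cyclins, kinases, kinesins and kinetochore genes), 21 were called lower (background 5.72%), with KIF20A, the central spindle kinesin, at -3.00, PLK1 at -2.46 and CCNB1 at -2.19. Of 28 centrosome and spindle genes that act in the structure throughout the cycle, such as pericentrin, the gamma-tubulin ring and the augmin subunits, edgeR and DESeq2 both called 0, with 14 at an unadjusted p below 0.05, against 44.8% of all genes tested, and a median log2 fold change of -0.0692. Of 23 genes of the contractile ring, the septins and the abscission machinery, edgeR and DESeq2 both called 0, with 13 at an unadjusted p below 0.05 (background 44.8%) and a median of 0.0188. Of 28 S phase genes, 10 were called higher (background 8.1%), among them CLSPN at 1.09, MCM10 at 1.02 and CCNE2 at 0.88. Genes called lower thus stood among the members and the other mitotic genes, with none in these 2 structural lists, and the lists were not tested against each other.

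**Figure D5:**
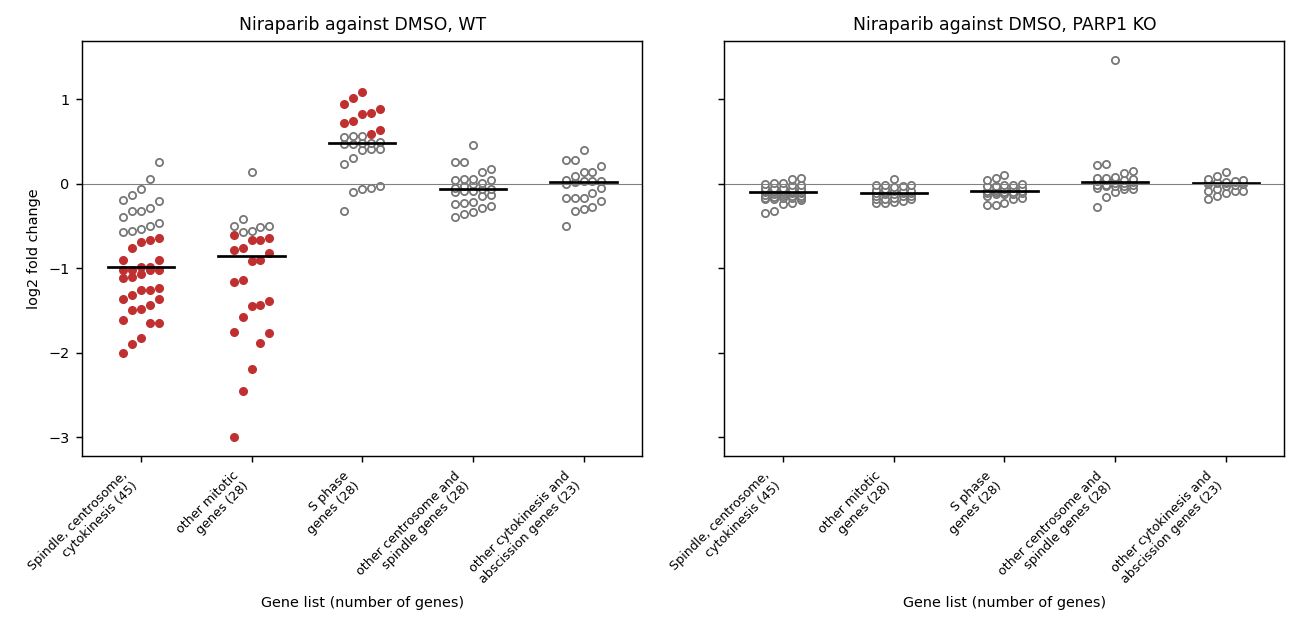
Log2 fold change with niraparib against DMSO in WT (left) and PARP1 KO (right) for the 45 members and 4 other gene lists (filled red points, called; open points, not called; line, median). In WT the members (median -0.989) and other mitotic genes (median -0.858) lie mostly below 0 and the S phase genes (median 0.483) mostly above it, and in PARP1 KO no gene of the 5 lists is called.

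The CHR letters stood in the windows of 17 of 26 other mitotic genes (65.4%), 6 of 26 other centrosome and spindle genes (23.1%) and 1 of 25 S phase genes (4.0%), against 15.4% of all windows. E2F letters stood in 13 of the 25 S phase windows, against 6.56% of all windows. The contractile ring list was not searched, and no test related the letters to the change in level.

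Among 18 genes that encode activators and repressors of the mitotic program, niraparib in WT called 4 higher (background 8.1%) and 1 lower (background 5.72%). CDKN1A, the CDK inhibitor p21, had 59.9 ± 8.07 CPM with DMSO and 281.8 ± 10.8 with niraparib in WT (SD, n = 3; log2 fold change 2.23, SE 0.0746), and 63.8 ± 3.40 and 70.9 ± 13.4 CPM in PARP1 KO. With olaparib CDKN1A had 135 ± 2.23 CPM in WT (1.18 on the log2 scale). MYBL2, which encodes B-MYB, was at 0.65, LIN54, the MuvB subunit that contacts the CHR, at 0.65, and RBL1, encoding p107, at 0.70, while RBL2, encoding p130, was at -0.63. FOXM1 was at -0.40 (adjusted p = 3.755e-07, edgeR), inside the fold limit. These are transcript levels of the regulators, and their part in the change of the 45 members was not tested.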

How the data were processed

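RNA of T47D cells was sequenced in 18 libraries, 3 in each of 6 groups. Per the study's methods, the authors trimmed reads with Trimmomatic, aligned them to GRCh38 with STAR, marked duplicates with Picard and assigned reads to genes with featureCounts. Per the file headers, this was featureCounts v2.0.0, counting primary alignments on exons with the reverse strand setting against an annotation of Ensembl release 96. The deposited files are named as deduplicated, while the methods do not state a removal step, so the counts may leave duplicates out. Reads that fall on more than 1 gene of a strand were not counted. The deposited values are whole, unnormalised counts per gene, 28890837 to 52251288 per library, and the biological coefficient of variation was 7.05% in WT and 7.42% in PARP1 KO. Of 58884 gene identifiers, 58472 had a symbol. The labels and the study's methods differ on RNA input, medium and extraction kit, and the methods name no PARP1 knockout line for the RNA sequencing.

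Counts were tested with edgeR 4.0.16 (R 4.3.3; TMM, robust quasi-likelihood F test) over all genes with more than 10 counts in the fit, with Benjamini-Hochberg adjustment. WT and PARP1 KO libraries were fitted apart for the drug comparisons (9 libraries each), and all 18 together for genotype and interactions. The niraparib and olaparib comparisons share DMSO libraries. The scripts were tested on simulated counts. Alternatives were DESeq2 1.42.0, RLE and total-count scaling, other count filters, a fit of all 18 libraries, other fold limits, a replicate block and leaving out each library. The labels do not say whether libraries with the same replicate number are paired, and the numbers were not taken as pairs. No 2 libraries agreed within sampling noise.

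The 45 members, the gene lists and the tests were chosen with earlier results of these data known. Values in every library are given for up to 3 members of each role with the smallest adjusted p for niraparib in WT, the members with the largest and the smallest absolute change there, and the members called elsewhere, up to 12 by adjusted p. CDCA5 and CKS1B were added after their values were seen. HMMR was added by name for its promoter sequence. Motif letters were searched on both strands of RefSeq promoter windows of 300 bases on GRCh38.p14, whose gene starts can differ from those of Ensembl. Bases after the start are not shown.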

Additional observations from a re-analysis of the deposited data

Results flagged for a closer look

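The niraparib change differed between the genotypes, by a test of the interaction itself, for 28 of the 45 members, and the olaparib change for 2. For niraparib, the log2 interaction of the lead member of each role with a call was 1.91 for PSRC1 (spindle), 1.18 for ARHGAP11A (cytokinesis), 1.10 for CDCA8 (chromosomal passenger complex), 0.86 for NEK2 (centriole separation) and 1.46 for PTTG1 (anaphase onset), each a smaller fall in PARP1 KO than in WT. For olaparib it was 0.65 for TROAP and 0.69 for CDCA3. With 3 libraries in each group, no library was tested as an outlier.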

How the results depend on the processing

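The members given library by library, CDCA5 and CKS1B aside, kept their direction for niraparib in WT, as did the calls for olaparib and the lead interaction terms, under the alternatives tried. Within PARP1 KO, signs of uncalled members turned: 41 members were lower with niraparib than with olaparib, and 32 without PARP1 KO Olaparib replicate 1. The median for olaparib in PARP1 KO turned too (0.00606, -0.00204 with total-count scaling and from -0.0516 to 0.0351 with each library left out). Counts of called members moved mainly with the fold limit. The study's methods word their limit as 1.5 on the log2 scale, while the legend of its transcript figure gives log2 of 1.5, a 1.5-fold change. Above an absolute log2 fold change of 1.5, 6 members were called for niraparib and 0 for olaparib in WT, and 1 between the drugs in WT. In PARP1 KO, 0 were called for olaparib and 0 between the drugs. The niraparib interaction had 4 calls there and the olaparib interaction 0. The shares of all genes given above are for other limits and cannot be set beside these counts. With the adjusted p alone, 29 were called for olaparib in WT, 44 between the drugs in WT, 1 for niraparib, 7 for olaparib and 10 between the drugs in PARP1 KO, 3 for PARP1 KO against WT and 16 for the olaparib interaction. Scaling by total count alone moved the median log2 fold change to -0.895 for niraparib in WT and to -0.641 between the drugs in WT, and lost the calls of RACGAP1 (-0.552) and CDKN3 (-0.575) with niraparib in WT (28 called), GTSE1, ECT2 and PBK between the drugs in WT (25 called), KNSTRN with olaparib in WT (-0.583) and CEP55 for the niraparib interaction (27 called). Of all genes called, those lower then numbered 932 of 3241 in place of 1283 of 3102 for niraparib in WT, 486 of 2173 in place of 748 of 2009 between the drugs, and 1633 of 2334 in place of 1283 of 2191 for the niraparib interaction. Leaving out each library in turn gave 30 to 32 called members for niraparib in WT, 2 to 4 for olaparib in WT, 0 to 1 for olaparib in PARP1 KO, 27 to 29 for the niraparib interaction and 1 to 3 for the olaparib interaction. The olaparib count in WT was 2 without WT Olaparib replicate 1 or WT DMSO replicate 3, that in PARP1 KO was 0 without PARP1 KO Olaparib replicate 1, and the olaparib interaction count was 1 without WT DMSO replicate 1. PBK passed the fold limit with niraparib in WT without WT Niraparib replicate 1 (-0.614), WT Niraparib replicate 3 (-0.617) or WT DMSO replicate 1 (-0.597). With the replicate number as a block, 30 members were called for niraparib and 3 for olaparib in WT, where KNSTRN (-0.584) dropped out, and 28 for the niraparib interaction. The deviations of same-numbered libraries had a correlation above 0.1 in 3 of 9 WT pairs and 2 of 9 PARP1 KO pairs. With different numbers it was above 0.1 in 8 of 18 WT and 9 of 18 PARP1 KO pairs. Same-numbered values ran from -0.56 to 0.387 in WT and from -0.523 to 0.578 in PARP1 KO. With 3 libraries per group these values cannot exclude pairing, and the numbers were not taken as pairs. The cause of these shifts was not tested.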
